A study of Mus musculus with 24 samples.

Results

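Of the 300776 chromatin accessibility peaks on chromosomes in ventral hippocampal nuclei of adult mice, 562 were open mainly in interneurons of the CGE and Lamp5 clusters. Accessibility was measured by single-nucleus ATAC sequencing (snATAC-seq), and the authors deposited the counts of each peak for every cell type and library. For the choice of members these counts were summed over 4 libraries into 6 groups and scaled to CPM, the usual unit that divides counts by the total of their group. The groups were dentate granule neurons (DG), CA1 and CA3 pyramidal neurons, MGE interneurons, the Inh-CGE and Inh-Lamp5 clusters together (the CGE/Lamp5 group), and non-neuronal cells. A peak was chosen where the CGE/Lamp5 group had at least 5 CPM and at least 3 times the CPM of each of the other 5 groups. These peaks are called CGE/Lamp5 peaks, and their accessibility by cell type is given as a description with no test, because it chose them.

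The study profiled inbred mouse strains to relate sequence differences to DNA methylation and transcription. The tissue was microdissected ventral hippocampus of male B6 and DBA mice aged 10 to 16 weeks, and each library combined tissue from about 2 animals. Each strain had 2 libraries of snATAC-seq and 2 of single-nucleus RNA sequencing (snRNA-seq), which the tables number 2 and 3, and the 16 methylation samples of the series were not used. Nuclei were sorted for a mixture of neuronal and non-neuronal nuclei with an antibody to NeuN for snRNA-seq, while the sort for snATAC-seq used a DNA stain without NeuN. The groups held 19920163 counts (CGE/Lamp5), 24475401 (MGE), 91548913 (DG), 141356569 (CA1), 69767572 (CA3) and 6736466 (non-neuronal), so that 5 CPM stood for 99.6 counts in the CGE/Lamp5 group and for 33.7 in non-neuronal cells.

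Cortical and hippocampal interneurons are inhibitory cells that use GABA and are born far from their final place, in the ganglionic eminences of the embryonic forebrain. The medial eminence (MGE) gives rise to the parvalbumin and somatostatin cells under the transcription factor Lhx6. The caudal eminence (CGE) gives rise to cells that contain vasoactive intestinal peptide or cholecystokinin and to some neurogliaform cells. Many of these cells have the serotonin receptor Htr3a. Homeodomain proteins of the Dlx family, SOX proteins and the nuclear receptors Nr2f1 and Nr2f2 act in the development of these cells. Open chromatin away from start sites often marks enhancers, sequences that raise transcription of genes in particular cell types.

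The 9 windows below, each the central 200 bases of a CGE/Lamp5 peak, show the regions that the results turn on, read from the plus strand of GRCm38 (mm10) as RefSeq gives it. Each is named by the protein-coding gene with the nearest start site, which is not shown to be the gene it acts on. The Efnb2 window (chr8:7964355-7964554), the Sptssa window (chr12:54476026-54476225) and the Esrrg window (chr1:187862346-187862545, in an intron of Esrrg) come from the members with high ratios to the next group, and the Esrrg peak leaned to Inh-CGE. The Adarb2 window (chr13:7589614-7589813), the Cnr1 window (chr4:33780814-33781013), the Htr3a window (chr9:48895888-48896087), the Lamp5 window (chr2:136071516-136071715) and the Kit window (chr5:75755902-75756101) come from the most accessible member nearest to 5 marker genes of these cells. The Cxcr4 window (chr1:128731299-128731498) comes from a peak called between the strains by edgeR and not by DESeq2. Capitals mark TAATTA, the core of many homeodomain sites, AACAAT or its reverse complement ATTGTT, a SOX sequence, CAGCTG, a form of the E-box CANNTG, and TTGGCA or its reverse complement, a sequence of NFI proteins.
Htr3a: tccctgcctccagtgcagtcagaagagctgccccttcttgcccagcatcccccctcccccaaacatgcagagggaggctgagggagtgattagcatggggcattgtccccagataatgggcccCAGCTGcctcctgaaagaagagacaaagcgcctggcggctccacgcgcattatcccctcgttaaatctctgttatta
Efnb2: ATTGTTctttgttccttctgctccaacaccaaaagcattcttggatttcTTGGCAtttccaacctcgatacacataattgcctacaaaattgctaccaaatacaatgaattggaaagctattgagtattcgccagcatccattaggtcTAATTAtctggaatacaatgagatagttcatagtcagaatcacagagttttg
Sptssa: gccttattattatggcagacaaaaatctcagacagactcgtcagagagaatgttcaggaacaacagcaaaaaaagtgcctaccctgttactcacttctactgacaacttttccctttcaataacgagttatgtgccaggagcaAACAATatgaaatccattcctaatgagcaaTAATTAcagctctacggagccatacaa
Esrrg: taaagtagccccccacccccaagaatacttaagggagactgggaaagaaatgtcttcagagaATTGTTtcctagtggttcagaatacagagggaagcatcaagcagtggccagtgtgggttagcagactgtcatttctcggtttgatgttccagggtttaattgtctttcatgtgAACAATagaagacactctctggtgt
Adarb2: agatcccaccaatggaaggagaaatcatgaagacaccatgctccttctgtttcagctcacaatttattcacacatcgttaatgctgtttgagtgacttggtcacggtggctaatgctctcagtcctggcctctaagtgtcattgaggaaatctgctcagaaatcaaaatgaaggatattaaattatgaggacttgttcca
Cnr1: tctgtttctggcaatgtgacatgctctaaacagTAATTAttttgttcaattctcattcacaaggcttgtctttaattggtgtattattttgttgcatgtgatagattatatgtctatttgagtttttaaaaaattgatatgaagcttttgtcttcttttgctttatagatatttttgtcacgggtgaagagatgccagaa
Lamp5: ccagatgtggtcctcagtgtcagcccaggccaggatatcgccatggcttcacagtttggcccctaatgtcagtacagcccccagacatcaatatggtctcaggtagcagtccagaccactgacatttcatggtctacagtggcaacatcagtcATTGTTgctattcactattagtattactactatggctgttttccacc
Kit: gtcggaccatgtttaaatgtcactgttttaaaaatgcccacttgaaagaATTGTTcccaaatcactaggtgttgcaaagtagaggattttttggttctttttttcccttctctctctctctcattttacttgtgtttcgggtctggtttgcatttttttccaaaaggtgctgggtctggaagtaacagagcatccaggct
Cxcr4: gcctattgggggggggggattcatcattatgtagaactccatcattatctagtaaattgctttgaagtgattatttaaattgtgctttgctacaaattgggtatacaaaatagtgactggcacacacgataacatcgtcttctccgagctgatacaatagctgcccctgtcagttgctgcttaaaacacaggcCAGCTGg
Of the 9 windows, 3 held TAATTA, 5 AACAAT, 2 CAGCTG and 1 TTGGCA, and the Adarb2 window held none of the 4.

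The snRNA-seq of the same tissue was used to check the label of the group against marker genes. Of 30 markers of CGE and Lamp5 interneurons, 21 had their highest RNA level in the CGE/Lamp5 group and 17 had at least 2 times the level of each other group. Their summed level was 13001 CPM in that group and 1213 CPM in MGE interneurons. Adarb2, a relative of RNA editing enzymes that marks CGE cells, was at 8681 CPM against 21.8 CPM in MGE interneurons. Of 20 MGE markers, 3 were highest in the CGE/Lamp5 group (Nos1, Tacr1 and Erbb4), and the list summed to 9440.4 CPM there and 11348 CPM in MGE interneurons, with Erbb4 the most abundant. None of 18 excitatory, 5 Cajal-Retzius and 13 non-neuronal markers was highest in the CGE/Lamp5 group, and their summed levels there were 562, 1.82 and 149 CPM. Camk2a, a kinase of excitatory neurons, and Mbp, a myelin protein, were the most abundant of the excitatory and non-neuronal markers in these nuclei, at 275 and 37.5 CPM.

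The 2 clusters of the group were not alike in these markers. Inh-CGE had 558 CPM of Vip, 55.5 CPM of Htr3a and 218 CPM of the transcription factor Npas1, where Inh-Lamp5 had 4.29, 0.805 and 4.56 CPM. Inh-Lamp5 had 249.7 CPM of Lamp5, a membrane protein of GABAergic terminals, against 14.0 CPM in Inh-CGE. It also had 78.8 CPM of Lhx6 and 2295 CPM of Nxph1, both MGE markers, where Inh-MGE had 67.5 and 2352 CPM and Inh-CGE had 0.385 and 258 CPM. Several other MGE markers were lower in Inh-Lamp5 than in Inh-MGE, among them Sst (27.1 against 1282 CPM), Sox6 (30.6 against 372 CPM), Satb1 (4.02 against 226 CPM), Pvalb (1.61 against 23.0 CPM), Elfn1 (0.805 against 88.5 CPM) and Grik3 (9.12 against 156 CPM). Others were higher in Inh-Lamp5 than in Inh-MGE, namely Nos1 (105 against 17.1 CPM) and Tacr1 (52.6 against 7.53 CPM). So were Maf (287 against 245 CPM) and Erbb4 (11065 against 5532 CPM). The markers of Inh-Lamp5 were thus mixed, and the peaks are named after both clusters.

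The 562 CGE/Lamp5 peaks had a median of 7.35 CPM in the CGE/Lamp5 group, with quartiles of 5.92 and 10.0 CPM. Their medians in the other groups were 1.47 CPM in MGE interneurons, 0.634 in DG, 0.630 in CA1, 0.645 in CA3 and 0.742 in non-neuronal cells. The median in non-neuronal cells stood for 5 counts, and 40 members had 0 counts there, which allows up to 3 counts. MGE interneurons were the next group in 341 of the peaks (60.7%), DG in 65, CA1 in 54, CA3 in 54 and non-neuronal cells in 48. Without the comparison with MGE interneurons, 2386 peaks would have passed. The ratio to the next group had a median of 4.12, and 175 members were at 5 or more.

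**Figure D1:**
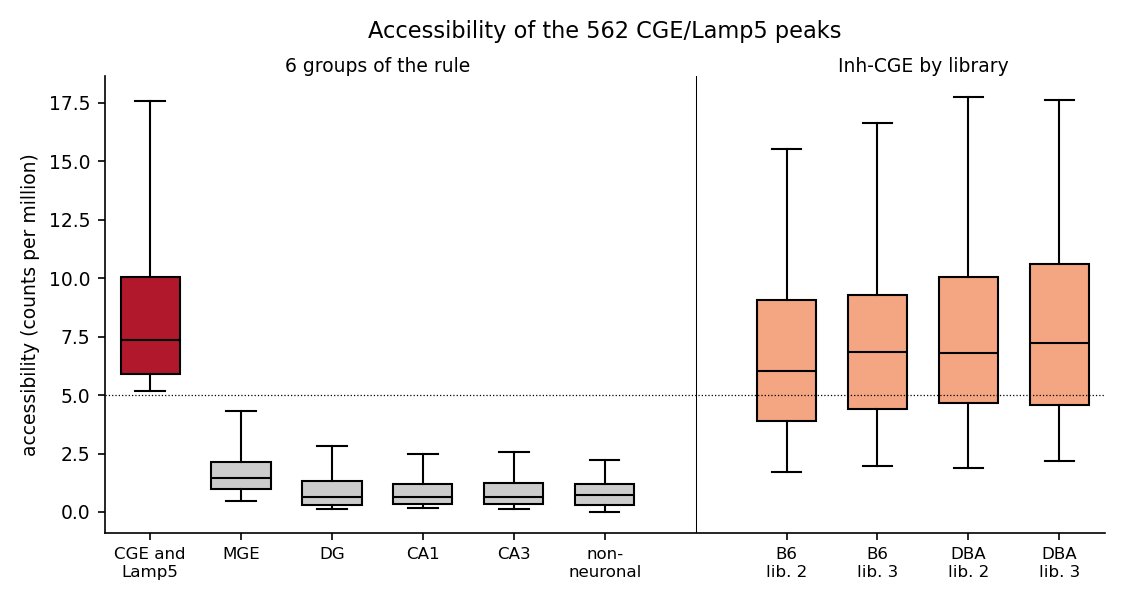
Accessibility in CPM of the 562 CGE/Lamp5 peaks in the 6 groups of the rule, over all libraries, and in Inh-CGE in each of the 4 libraries, with boxes from the lower to the upper quartile, lines at the median and whiskers from the 5th to the 95th percentile. The dotted line is the minimum of 5 CPM for the CGE/Lamp5 group, and the medians of the 4 libraries lay between 6.04 and 7.24 CPM.

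The same rule chose 1218 peaks for MGE interneurons, 1466 for DG, 968 for CA1, 1227 for CA3 and 2569 for non-neuronal cells, so the CGE/Lamp5 peaks were the smallest of the 6 sets. Of the 300776 peaks, 40778 reached 5 CPM in the CGE/Lamp5 group, and 13572 of these (33.3%) lay within 2 kb of a start site, where chromatin is open in most cells. Just inside the 3-fold limit were a peak near Antxr2, at 5.27 CPM against 1.76 CPM in MGE interneurons, and peaks at the given ratio near Prelid2 (3.01), Gpat3 (3.01), Saraf (3.02) and Sphkap (3.02). Just outside were peaks near Etaa1, at 6.98 CPM against 2.33 CPM in MGE interneurons, Oxsm (2.99), Epha7 (2.99), Cenpw (2.99) and C1ql3 (2.98). The lowest member was at 5.02 CPM and the highest peak below the minimum was at 4.97 CPM. Excitatory clusters outside the rule were not used in the choice, and the CGE/Lamp5 peaks had medians of 0.416 CPM in Exc-ENT, 0.345 in Exc-Gpc6 and 0.401 in Exc-Cdh12. The CGE/Lamp5 level was at least 3 times that of Exc-ENT in 554 of the 562, of Exc-Gpc6 in 550 and of Exc-Cdh12 in 540.

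Among the members with the highest CPM, that 15.0 kb from the start of Htr3a, chr9:48895454-48896523, had 37.2 CPM against 10.9 CPM in MGE interneurons, and 46.6 and 44.0 CPM in B6 and 42.6 and 39.6 CPM in DBA in Inh-CGE. Both DBA libraries were lower there, and the difference did not pass the test (log2 fold change -0.11, edgeR adjusted p = 0.944). Others with high CPM lay nearest to Rngtt (32.8 CPM), Shisa6 (31.9), Sbno2 (31.0), Cyld (30.3), Igf1 (27.7), Gm15217 (24.1), Grip1 (23.5) and Kdm4a (23.4). Igf1 encodes an insulin-like growth factor that Vip cells make, and Shisa6 and Grip1 encode proteins that act on AMPA receptors at synapses. The ratios of these 9 to the next group lay between 3.04 and 4.49, so the members with the most signal were not those with the highest ratios.

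Among the 142 members at 10 CPM or more, the highest ratio was that of chr8:7964044-7964867, 697 kb from the start of Efnb2, with 13.6 CPM in the CGE/Lamp5 group and 0.891 CPM in the next group, which was non-neuronal cells (15.2-fold). The next were members near Sptssa (14.9-fold), Sec61g (13.5), Rnf144a (11.7), Igfbp7 (10.3), Dtwd2 (9.91), Trim62 (9.47), Grin2a (9.43), Esrrg (8.97) and Cnr1 (8.87). Of these 10 peaks, Inh-Lamp5 had the higher CPM in 8, all but those near Esrrg and Cnr1. Over all members the highest ratio was 33.6, for a peak near Dcc, the receptor for netrin that guides axons, with 8.08 CPM in the CGE/Lamp5 group and 0.241 CPM in CA1. This peak was chosen after its values were seen.

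The 2 cell types of the group shared some of the peaks and differed in others. The median of the 562 CGE/Lamp5 peaks was 6.81 CPM in Inh-CGE and 8.96 CPM in Inh-Lamp5. Within 2-fold of each other were 293 of the peaks (52.1%), while 92 (16.4%) were at least 2-fold higher in Inh-CGE and 177 (31.5%) at least 2-fold higher in Inh-Lamp5. On their own, Inh-CGE passed the 3-fold comparison with each other group in 413 of the members, Inh-Lamp5 in 418 and each of them in 269. Because Inh-CGE held 12780904 of the counts of the group and Inh-Lamp5 7139259, a peak open in Inh-CGE alone weighed more in the choice.

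Toward Inh-CGE, the member near Pfkp, a glycolytic enzyme, had 7.90 CPM (101 counts) against 0.140 CPM (1 count) in Inh-Lamp5. The member near Elfn1, a synaptic adhesion protein of interneurons, had 9.39 CPM (120 counts) against 0.420 CPM (3 counts). The member near Nr3c2, the mineralocorticoid receptor, had 9.47 against 0.700 CPM, and the member in Esrrg, an orphan nuclear receptor, had 15.4 against 3.08 CPM. Members near Sp8, Nr2f2 and Penk also leaned to Inh-CGE, and these encode 2 transcription factors of CGE cells and the precursor of enkephalins.

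Toward Inh-Lamp5, the member near Mme, which encodes neprilysin, had 17.6 CPM against 0.939 CPM in Inh-CGE. The member near Ntf3, a neurotrophin, had 13.6 against 0.939 CPM, and the member in Erbb4, the neuregulin receptor, had 18.2 against 1.33 CPM. The member near Kit, a receptor tyrosine kinase, had 18.2 against 3.60 CPM, and the member near Id2, an inhibitor of bHLH factors, had 17.2 against 3.83 CPM. All 4 members near Grin2a, a subunit of NMDA receptors, and all 3 near Rnf144a leaned to Inh-Lamp5. The median distance to a start site was 139 kb for the members toward Inh-CGE, 104 kb for those within 2-fold and 156 kb for those toward Inh-Lamp5. The members near Pfkp, Nr3c2, Mme and Ntf3 were chosen after their values were seen, as extremes of the ratio between both cell types.

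**Figure D2:**
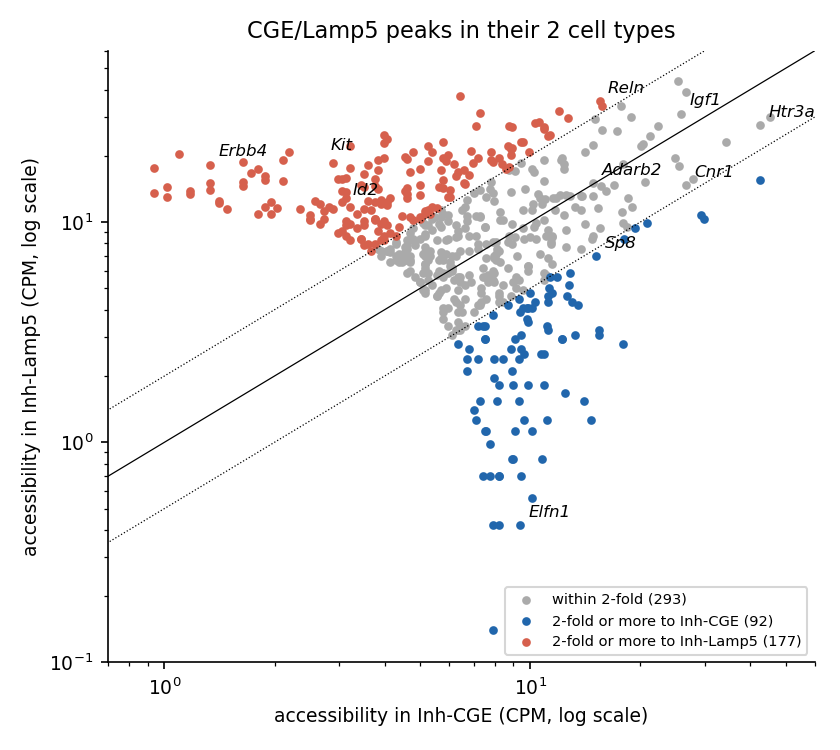
Accessibility of the 562 CGE/Lamp5 peaks in Inh-CGE (horizontal) and Inh-Lamp5 (vertical), in CPM on log scales, with 1 point per peak, a solid line at equality and dotted lines at 2-fold. Blue points are the 92 peaks that leaned to Inh-CGE and red points the 177 that leaned to Inh-Lamp5, and labels give the nearest gene.

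The CGE/Lamp5 peaks lay far from start sites. Within 2 kb of the start of a protein-coding gene were 3 of the 562 (0.534%), against 1.23% of the MGE peaks chosen by the same rule and 7.05% of all peaks. Those 3 were near Sp8, at 0.612 kb, and near Gm16223 and Olfr1383, which were named after their values were seen. With the start sites of all annotated genes, 536 of the 562 lay more than 2 kb away, 1144 of the 1218 MGE peaks and 265707 of all peaks, so more members were near a start than by protein-coding genes alone. Of the members, 67.1% were intergenic, 31.7% lay in introns and 0.712% in exons, and the shares over all peaks were 42.6%, 47.0% and 3.38%. The median distance to the nearest start site was 122 kb for the CGE/Lamp5 peaks, 87.3 kb for the MGE peaks and 46.3 kb for all peaks. More than 500 kb away were 53 members (9.43%), against 8.21% of the MGE peaks and 4.83% of all peaks. With 144 members inside the body of their nearest gene and 39 inside another gene only, the name of the nearest gene is a label of place.

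The Sp8 peak, at chr12:118846594-118847289, is a member at the start of a transcription factor gene that CGE progenitors and their descendants express. It had 12.2 CPM in the CGE/Lamp5 group, and the next group was DG at 2.36 CPM. In Inh-CGE it had 11.2 and 14.7 CPM in B6 and 17.3 and 15.4 CPM in DBA. Both DBA libraries were above both B6 libraries, and the difference did not pass the test (log2 fold change 0.39, edgeR adjusted p = 0.835). The promoters of other marker genes were not members. The promoter of Adarb2 had 32.6 CPM in the CGE/Lamp5 group and 29.0 CPM in DG, and that of Cnr1, the cannabinoid receptor, had 57.9 CPM against 44.0 CPM in CA1. The promoter of Htr3a had 11.7 CPM against 4.38 CPM in DG, and the promoter of Vip had 2.61 CPM, under the minimum, and at most 0.594 CPM in the other groups.

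**Figure D3:**
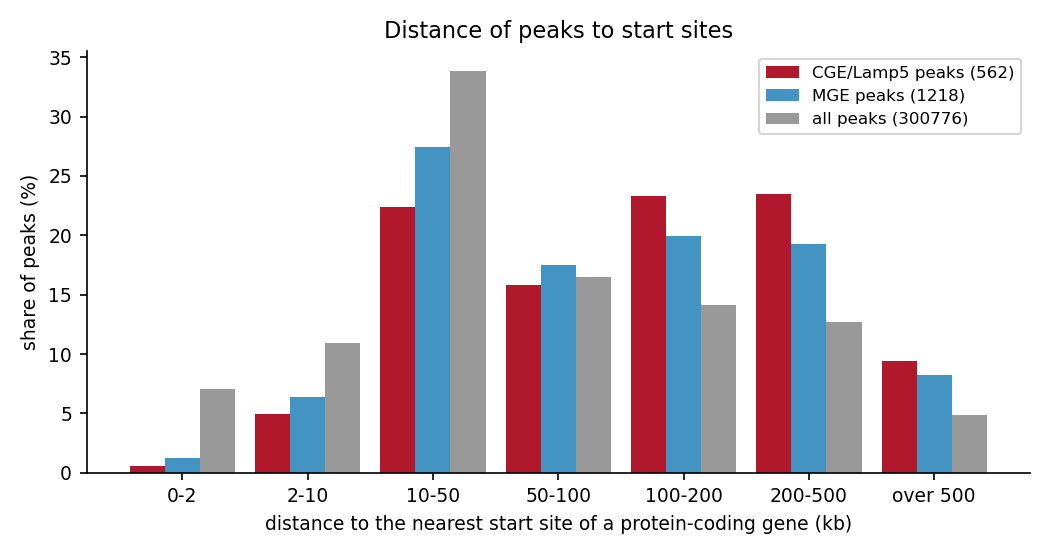
Share in percent of the 562 CGE/Lamp5 peaks, the 1218 MGE peaks and the 300776 peaks on chromosomes in each range of distance in kb to the nearest start site of a protein-coding gene. The bars of the CGE/Lamp5 peaks are above those of all peaks in each range over 100 kb, which held 56.2% of them against 31.7% of all peaks.

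In base composition the CGE/Lamp5 peaks had a median GC content of 42.6%, where the MGE peaks had 45.1% and all peaks 46.4%. Their CpG density had a median of 9.71 per kb against 10.6 in the MGE peaks and 10.5 in all peaks, and their median length was 559.5 bp against 554 and 534 bp. Between neighbouring members, 24 of the gaps were of 50 kb or less. Among the autosomes, chromosome 8 had the highest density, with 39 members of 15464 peaks, and chromosome 15 the lowest, with 12 of 12970, while the X chromosome had 2 of 6249.

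The sequence of the central 200 bases was searched for 14 motifs on both strands, and a match is a description of the letters. TAATTA stood in 129 of the 562 CGE/Lamp5 windows (23.0%), in 9.44% of the MGE windows and in 6.21% of all windows. AACAAT stood in 159 (28.3%), against 7.47% and 10.3%. TTGGCA stood in 122 (21.7%), against 10.0% and 14.9%, and ATGCAAAT, the octamer of POU proteins, stood in 27 (4.80%), against 2.79% and 1.59%. Of the 14 motifs, these 4 and GTTGCCA had a higher share in the CGE/Lamp5 peaks than in both other sets. At least 1 of TAATTA and AACAAT stood in 245 of the members (43.6%), against 16.0% of the MGE peaks and 15.7% of all peaks, and both stood in 7.65% against 0.903% and 0.868%. Members that held TAATTA had a median ratio to the next group of 4.38 and those that held AACAAT of 4.45, near the 4.12 over all members. Among the printed windows, those of Efnb2 and Sptssa held both.

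E-boxes were less frequent in the CGE/Lamp5 peaks than in the MGE peaks. CAGCTG stood in 83 of the CGE/Lamp5 windows (14.8%), near the 14.3% of all windows, while 39.1% of the MGE windows held it. CAGATG stood in 15.7% of the members, 30.5% of the MGE peaks and 23.0% of all peaks. Both are forms of CANNTG, which stood in 67.1%, 81.0% and 72.5%. TGANTCA, the AP-1 sequence, stood in 8.54% of the members, 19.0% of the MGE peaks and 10.1% of all peaks, and AGGTCA, the core of nuclear receptor sites, in 4.63%, 8.37% and 8.53%. The remaining shares for members, MGE peaks and all peaks were 16.4%, 18.1% and 16.5% for TGACAG (MEIS), 3.20%, 2.30% and 5.54% for GGGCGG (GC box), 0.534%, 0.739% and 0.883% for CCACNAGGG (CTCF), 3.38%, 2.05% and 3.14% for GTTGCCA (RFX) and 8.01%, 9.85% and 10.4% for ACGTG (bHLH-PAS). ACGTG can overlap CANNTG, and GTTGCCA can overlap the reverse complement of TTGGCA.

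**Figure D4:**
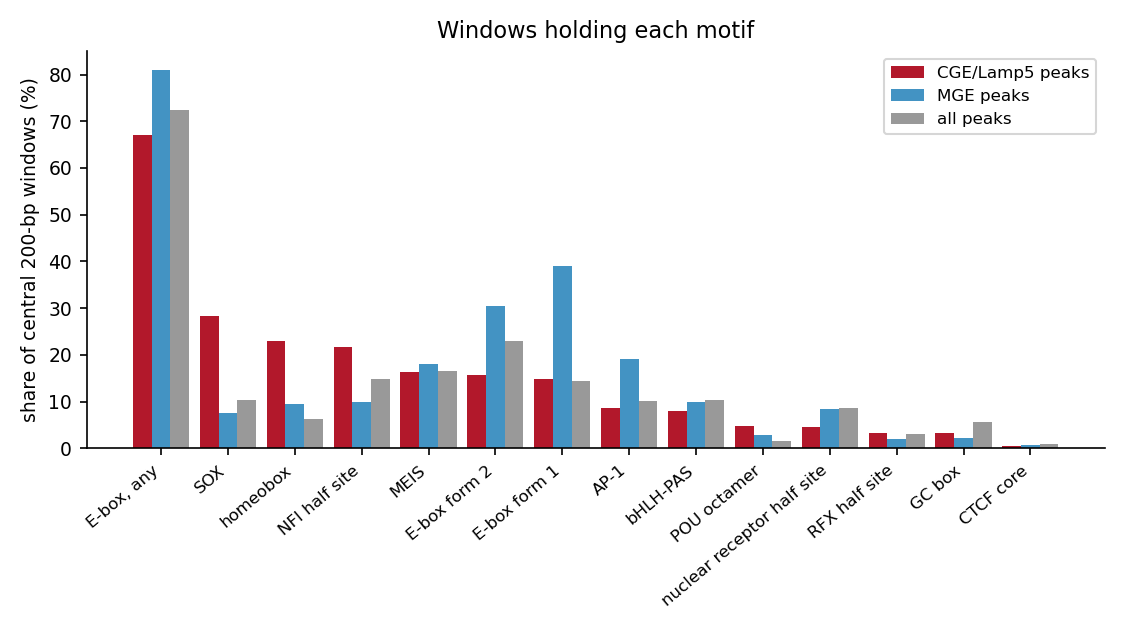
Share in percent of the central 200-bp windows of the CGE/Lamp5 peaks, the MGE peaks and all peaks that hold each of the 14 motifs on either strand, ordered by the share in the CGE/Lamp5 peaks. E-box form 1 is CAGCTG and form 2 CAGATG, and the homeobox, SOX and NFI bars of the CGE/Lamp5 peaks (23.0%, 28.3% and 21.7%) stand above both other sets.

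The shares were also read over a narrower range of GC content, a comparison chosen after the data were seen. Among peaks within the middle range of the members' GC content, TAATTA stood in 24.6% of the CGE/Lamp5 peaks, 12.1% of the MGE peaks and 8.37% of all peaks. AACAAT stood in 31.6%, 9.58% and 13.5% there, TTGGCA in 20.7%, 8.81% and 16.4%, and CAGCTG in 14.0%, 33.3% and 11.3%. In that range the median distance to a start site was 132 kb for the CGE/Lamp5 peaks, 118 kb for the MGE peaks and 65.7 kb for all peaks, and 7.37%, 11.7% and 6.60% lay more than 500 kb away, so that the MGE peaks had the highest share there.

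The motifs also differed within the CGE/Lamp5 peaks. CAGCTG stood in 34.8% of the 92 members that leaned to Inh-CGE, 13.3% of the 293 within 2-fold and 6.78% of the 177 that leaned to Inh-Lamp5. TTGGCA ran the opposite way, with 14.1%, 19.1% and 29.9%. TAATTA was most frequent in members open in both cell types, at 27.0%, against 15.2% toward Inh-CGE and 20.3% toward Inh-Lamp5. AACAAT differed little, with 31.5%, 27.6% and 27.7%. TGANTCA stood in 16.3% of the members toward Inh-CGE and in 6.78% of those toward Inh-Lamp5, and ACGTG in 18.5% and 5.08%. The Esrrg and Kit windows, which come from opposite sides, each held AACAAT.

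By nearest start site the 562 CGE/Lamp5 peaks fell to 484 protein-coding genes, of which 62 had at least 2 members. Adarb2 had the most, with 5 of the 76 peaks nearest to it, and their distances from its start ran from 114 to 613 kb. The most accessible of them had 14.9 CPM in the CGE/Lamp5 group against 3.44 CPM in DG, and 16.4 and 16.6 CPM in B6 and 12.6 and 15.4 CPM in DBA in Inh-CGE, which did not pass the test between strains (log2 fold change -0.20, edgeR adjusted p = 0.927). All 5 were within 2-fold in both cell types. Next came Prelid2 (4 of 91 peaks), Grin2a (4 of 134) and Sorcs1 (4 of 156), and then Cobl, Nrxn3, Rnf144a, Tbc1d22a, Ntm, Galntl6 and Prkd1 with 3 each. Rngtt, Sorcs3, Myo3a, Cnr1, Pfkp, Med10, Cps1, Pik3c3 and Impad1 had 2 each.

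RNA levels of these genes, summed over the same groups, showed where they were transcribed. Adarb2 was at 8681 CPM in the CGE/Lamp5 group and next at 1059 CPM in DG. Sorcs1, a sorting receptor, was at 399.7 CPM against 30.6 CPM in MGE interneurons and 297 CPM in non-neuronal cells. Cnr1, the receptor that lets cannabinoids damp GABA release from cholecystokinin cells, was at 620.3 CPM against 85.6 CPM in CA3. Sorcs3 was at 546 CPM against 436 CPM in CA1, and Myo3a, a myosin, at 11.6 CPM against 1.18 CPM in MGE interneurons. Nrxn3, a presynaptic adhesion protein, and Galntl6 were highest in the CGE/Lamp5 group by less, at 9696 and 5530.0 CPM against 7685 and 4367 CPM in MGE interneurons. Of the 20 genes, 10 had a higher level in another group, among them Grin2a, Cobl and Cps1. Grin2a was at 1609 CPM in the CGE/Lamp5 group and 3565 CPM in DG, while within the group Inh-Lamp5 had 3599 and Inh-CGE 656 CPM. Cobl was at 8.34 CPM against 87.5 CPM in non-neuronal cells, and Cps1 was at 1.91 CPM against 2.49 CPM in MGE interneurons.

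Of the 337 nearest genes with at least 5 CPM of RNA in the CGE/Lamp5 group, 90 (26.7%) had their highest level there. The same share was 12.5% of the 10273 genes nearest to any peak, and 12.2% of the 639 genes nearest to MGE peaks. At least 2 times each other group were 24 of the 337 (7.12%), against 0.788% of the genes nearest to any peak. Among genes with at least 2 CGE/Lamp5 peaks, 20 of 51 (39.2%) were highest in the CGE/Lamp5 group. Of the 24 genes at 2 times each other group, Syt6, a synaptotagmin, was at 71.1 CPM in the CGE/Lamp5 group and 1.38 CPM in MGE interneurons, and Rgs12, a regulator of G proteins, at 175 and 9.47 CPM. Pde3a, a phosphodiesterase, was at 286 and 42.6 CPM, Sema3c, a semaphorin, at 91.1 and 15.2 CPM, and Wnt5a, a secreted Wnt ligand, at 43.5 and 8.09 CPM. These 5 genes were chosen after their values were seen. The lean of a peak and the RNA of its nearest gene ran together more often than not. Of the 60 such genes near members that leaned to Inh-CGE, 49 (81.7%) had more RNA in Inh-CGE than in Inh-Lamp5, and of the 109 near members that leaned to Inh-Lamp5, 32 (29.4%) did. The share was 51.9% over all 337 and 48.3% over the genes nearest to any peak. These are counts with no test, since clusters were made from the RNA and the cell types of the snATAC-seq were transferred from it.

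Of the 30 markers of CGE and Lamp5 interneurons, 12 had a CGE/Lamp5 peak nearest to them, 17 peaks of 1157 (1.47%), where the share over all peaks was 0.187%. They were the transcription factor genes Sp8, Nr2f2 and Id2, the receptors Htr3a, Cnr1 (2 peaks), Kit and Chrna7, the secreted or vesicle proteins Penk, Reln and Igf1, Lamp5 itself and Adarb2 (5 peaks). Reln, an extracellular matrix protein of neurogliaform cells, had a member in an intron with 35.4 CPM in Inh-Lamp5 and 15.5 in Inh-CGE. Chrna7, a nicotinic receptor subunit, had a member in an intron with 7.73 CPM, and the member near Lamp5 had 10.2 CPM. Of 23 receptor and peptide genes of these cells, 3 had members (Htr3a, Cnr1 and Chrna7), with 4 of 650 peaks (0.615%).

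Other marker lists had fewer members. Of 20 MGE markers, 6 had 1 CGE/Lamp5 peak each, of 824 peaks (0.728%), namely Npy, Nos1, Elfn1, Maf, Erbb4 and Btbd11. The RNA of Erbb4 and Nos1 was higher in the CGE/Lamp5 group than in MGE interneurons, at 7448 against 5532 CPM and 59.1 against 17.1 CPM. That of the other 4 was lower, at 56.4 against 169 CPM for Npy, 31.5 against 88.5 CPM for Elfn1, 203 against 245 CPM for Maf and 262 against 348 CPM for Btbd11. Of 14 markers of all GABAergic neurons, Zeb2 had 1 of 576 peaks (0.174%), 1439 kb from its start, and of 13 non-neuronal markers, Pdgfra had 1 of 288 (0.347%). No member lay nearest to any of 18 excitatory markers (0 of 434 peaks) or 5 Cajal-Retzius markers (0 of 92), where the share over all peaks, 0.187%, comes to less than 1 peak in either list.

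The strains were then taken apart, since the choice of members had used their sum. DBA gave 12260152 of the counts of the CGE/Lamp5 group (61.5%) and B6 gave 7660011 (38.5%). On the counts of 1 strain the rule was passed by 394 of the 562 in B6, 479 in DBA and 321 in both, which is no separate reading, since both strains entered the choice. A choice made in 1 strain can be read in the libraries of the other, which it did not use. Of 551 peaks chosen in B6 alone, 544 (98.7%) were highest in the CGE/Lamp5 group of DBA and 366 (66.4%) were at 3 times each other group there, and their median ratio fell from 4.16 to 3.64. Of 623 chosen in DBA alone, 619 (99.4%) and 401 (64.4%) were so in B6, and the median ratio fell from 4.10 to 3.65.

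The comparison of strains within cells asked which of the peaks differ by genotype. It used Inh-CGE alone, with 2 libraries per strain of 2317568 and 2044488 counts (B6) and 4275951 and 4142897 counts (DBA), from 219, 113, 363 and 257 nuclei. The median of the CGE/Lamp5 peaks was 6.04 and 6.85 CPM in B6 and 6.78 and 7.24 CPM in DBA. Of the 562, 354 and 375 reached 5 CPM in B6 and 400 and 402 in DBA, and the CGE/Lamp5 peaks held 0.403% and 0.440% of the B6 counts and 0.458% and 0.473% of the DBA counts. All 562 passed the minimum of 10 counts over the 4 libraries. Called at an adjusted p under 0.05 by edgeR were 3 of the 562, 2 higher in DBA and 1 lower, while the shares over all 184454 peaks tested were 0.273%, 0.129% higher and 0.144% lower. At an unadjusted p under 0.05 were 74 members (13.2%), 57 of them higher in DBA. Over all peaks tested the share was 6.55%, or 12086 peaks, with 6536 of them higher in DBA. These shares are not alike in precision, since the median SE was 0.356 for the members and 0.652 for all peaks tested. The choice of members had also used these Inh-CGE counts, with more of the group's counts from DBA. The higher share and its direction are therefore not given as a difference between the strains.

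The member at chr1:128730767-128732031, 139 kb from the start of Cxcr4, the chemokine receptor that guides migrating interneurons, had 12.1 and 8.80 CPM in B6 and 19.6 and 24.4 CPM in DBA. Both DBA libraries were above both B6 libraries, with a log2 fold change of 1.09 (SE 0.24, edgeR adjusted p = 0.00618). The member at chr5:34930373-34932263, 13.8 kb from the start of Msantd1, had 22.0 and 20.1 CPM in B6 and 35.3 and 31.9 CPM in DBA. Here too the strains did not overlap (log2 fold change 0.71, SE 0.18, edgeR adjusted p = 0.0480). The member at chr17:79036321-79036704, 15.4 kb from the start of Qpct, which encodes an enzyme that caps peptides with pyroglutamate, had 4.75 and 6.85 CPM in B6 and 1.17 and 0.483 CPM in DBA, from 11, 14, 5 and 2 counts. It was lower in both DBA libraries (log2 fold change -2.70, SE 0.59, edgeR adjusted p = 0.00775), and over both strains it leaned to Inh-Lamp5, with 10.2 CPM against 2.50 CPM in Inh-CGE. These calls depended on the tool, on the filter on low counts and on single libraries. With a minimum of 1 count edgeR called 0 of the 562. Its adjusted p was then 0.373 near Cxcr4, 0.397 near Msantd1 and 0.597 near Qpct, while with filterByExpr all 3 were called. DESeq2 called 0 of the 562 (22 at an unadjusted p under 0.05), with adjusted p of 0.453, 1.00 and 0.509 for the peaks near Cxcr4, Msantd1 and Qpct and log2 fold changes of 1.13, 0.73 and -2.74, and edgeR called 0 without B6 library 3 (60 unadjusted) and 0 without DBA library 3 (47 unadjusted). Without B6 library 2, and without DBA library 2, the peaks near Cxcr4 and Qpct were called. The peak near Msantd1 was called in none of the 4 settings with a library left out, with edgeR adjusted p from 0.0813 to 0.463. Over these 4 settings the log2 fold changes kept their direction, from 0.88 to 1.34 near Cxcr4, from 0.60 to 0.77 near Msantd1 and from -3.45 to -2.24 near Qpct.

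Transcripts gave a second reading of these genes in Inh-CGE. Qpct had 55.5 and 39.6 CPM of RNA in B6 and 22.6 and 31.0 CPM in DBA, lower in both DBA libraries (log2 fold change -0.86, SE 0.22, edgeR adjusted p = 0.0102). This call was absent with DBA library 2 or DBA library 3 left out. DESeq2 on all libraries called 1278 transcripts over the whole table, a total that does not show whether Qpct was among them. Cxcr4 had 4 counts in B6 and 13 in DBA, and Msantd1 had 13 and 15, and neither passed the filter on low counts of the main test.

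The median log2 fold change of the CGE/Lamp5 peaks was 0.18, where that of all peaks tested was 0.03, and 392 of the 562 (69.8%) had a positive value against 51.8%. This shift moved with how the peaks were chosen. The peaks chosen in B6 alone had a median of 0.04 and those chosen in DBA alone 0.26. The shift is therefore not given as a difference between the strains.

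**Figure D5:**
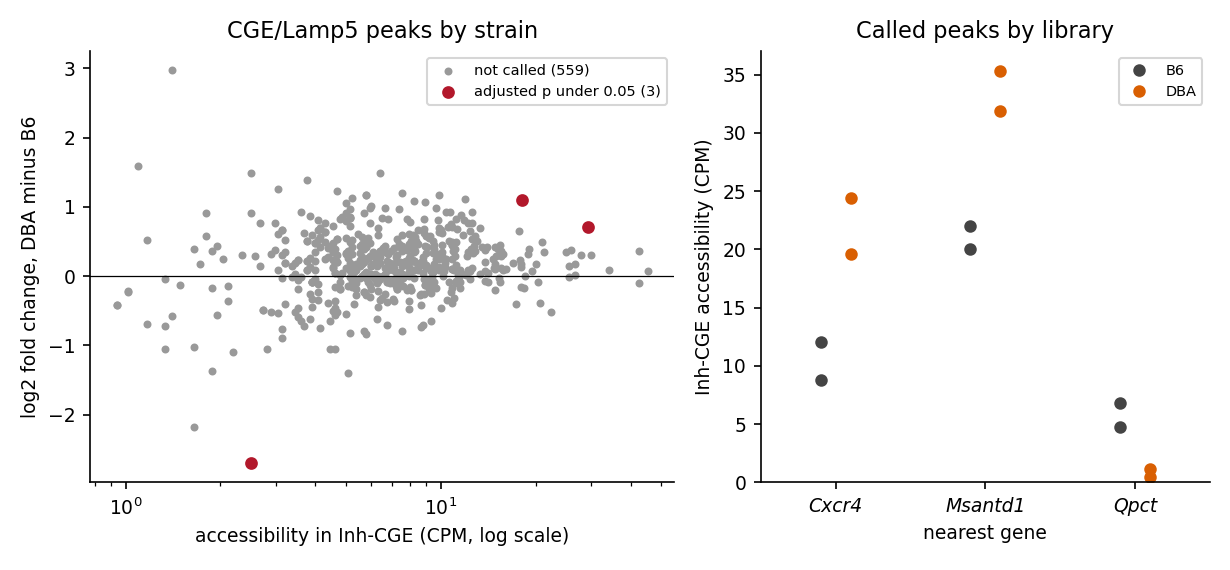
Left, log2 fold change of DBA minus B6 in Inh-CGE against Inh-CGE accessibility in CPM (log scale) for the 562 CGE/Lamp5 peaks, with the 3 called by edgeR in red. Right, CPM of those 3 peaks in each library, where the 2 B6 and the 2 DBA libraries do not overlap.

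Of the 484 genes nearest to CGE/Lamp5 peaks, 335 passed the filter on low counts in the snRNA-seq of Inh-CGE, whose libraries held 1856636 and 1868696 counts (B6) and 2253504 and 1806953 counts (DBA). Called by edgeR were 51 (15.2%), 21 higher and 30 lower in DBA. Over all 12700 transcripts tested the shares were 15.1%, 9.06% higher and 6.02% lower. In total, the genes near these peaks were thus called about as often as others. Of the 51, more were lower than higher in DBA, unlike the transcripts as a whole, and this difference was not tested. At an unadjusted p under 0.05 were 96 (28.7%), where the share over all transcripts was 25.8%. The calls depended on the DBA libraries. Without DBA library 2 edgeR called 0 transcripts over the whole table (2375 at an unadjusted p under 0.05), without DBA library 3 also 0 (2049), and without B6 library 3 it called 32 of the nearest genes, while DESeq2 on all libraries called 27 of them.

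Of the 30 nearest genes called lower in DBA, the 2 with the largest change were Dnajc19, a mitochondrial import protein, with 178 and 176 CPM of RNA in B6 and 71.0 and 65.9 CPM in DBA (log2 fold change -1.38, SE 0.13, edgeR adjusted p = 2.74e-07), and Meis2, a homeodomain factor, with 54.9 and 38.0 CPM of RNA in B6 and 17.8 and 19.4 CPM in DBA (log2 fold change -1.34, SE 0.23, edgeR adjusted p = 0.000245). In both the strains did not overlap. Penk, the enkephalin precursor, had 62.5 and 63.1 CPM of RNA in B6 and 39.1 and 50.4 CPM in DBA (log2 fold change -0.52, SE 0.17, edgeR adjusted p = 0.0495), also without overlap. Erbb4 and Btbd11 fell by 0.41 and by 0.43 on the log2 scale, and Efnb2, an ephrin, fell by 0.74. Dnajc19, Meis2 and Efnb2 were chosen after their values were seen.

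Higher in DBA were Id2, with 5.92 and 6.42 CPM of RNA in B6 and 11.5 and 17.2 CPM in DBA (log2 fold change 1.17, SE 0.37, edgeR adjusted p = 0.0364), and Fam240b and Tns1, with log2 fold changes of 2.24 and 2.15. Tns1 encodes tensin, which links integrins to actin. Rnls, the gene of renalase, had 0 counts in both B6 libraries and 32 in each DBA library. With a floor of 3 counts over both B6 libraries it was at least 19.6-fold higher in DBA, a bound that holds only if the gene list and reference used for B6 held it. Fam240b, Tns1 and Rnls were chosen after their values were seen. The accessibility of the members near Id2 and Penk did not pass the test, with log2 fold changes of -0.61 (SE 0.45) and 0.39 (SE 0.28).

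Genes that define these cells were read in the same test. Adarb2 had 11492 and 12501 CPM of RNA in B6 and 12208 and 11657 CPM in DBA (log2 fold change -0.02, edgeR adjusted p = 0.940), and the strains overlapped. Htr3a had 58.7 and 54.6 CPM of RNA in B6 and 60.4 and 47.0 CPM in DBA (log2 fold change -0.08, adjusted p = 0.832, edgeR), also with overlap. Cnr1 had 837 and 653 CPM of RNA in B6 and 855 and 1154 CPM in DBA, higher in both DBA libraries without passing the test (log2 fold change 0.41, edgeR adjusted p = 0.0577). Of 29 CGE and Lamp5 markers tested, 5 were called higher in DBA (Npas1, Nr2f1, Cck, Tac2 and Id2) and 4 lower (Prox1, Penk, Egfr and Synpr), where the shares over all transcripts tested were 9.06% and 6.02%. These calls too were absent with DBA library 2 or DBA library 3 left out. DESeq2 on all libraries called 1278 transcripts over the whole table, a total that does not show whether these markers were among them. Their summed level was 16233 and 17090.0 CPM in B6 and 16831 and 17592 CPM in DBA. Cck, whose peptide names a class of CGE cells, had 336 and 217 CPM of RNA in B6 and 492 and 909.8 CPM in DBA (log2 fold change 1.32, SE 0.21, edgeR adjusted p = 0.000104), higher in both DBA libraries. Tac2, which encodes neurokinin B, was also higher (log2 fold change 1.21, SE 0.16, edgeR adjusted p = 9.04e-06) and was the 1 called of the 13 genes tested from a separate list of receptors and peptides, which held neither Cck nor Penk.

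Markers of other cells were read in the same libraries. Over all transcripts tested, edgeR called 9.06% higher in DBA and 6.02% lower. Of 14 MGE markers tested, Kcnc1 was called higher and Erbb4 and Btbd11 lower. The lowest edgeR adjusted p among 14 GABAergic markers was 0.201, for Dlx2. Of 8 excitatory markers Calb1 was higher in DBA (log2 fold change 0.72, SE 0.20, edgeR adjusted p = 0.0183). Among the non-neuronal markers tested, Mbp was lower in DBA (log2 fold change -0.79, SE 0.21, edgeR adjusted p = 0.0123). The calls on these lists were absent with either DBA library left out. Whether any list was called more often than all transcripts was not tested. The 13 non-neuronal markers summed to 166 and 149 CPM in B6 and 118 and 132 CPM in DBA, with Mbp the most abundant over the group and Cspg4 and Cldn5 under 1 CPM there. The part of such RNA from other cells in the strain differences was not tested.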

How the data were processed

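The authors deposited raw counts (UMI counts per gene for snRNA-seq, counts per peak for snATAC-seq), which they had summed over nuclei by cell type and library. Reads were mapped with Cell Ranger 6.0.2 (introns retained) or Cell Ranger ATAC 2.0.0 to mm10 for B6 and to mm10 with DBA variants for DBA, and peaks were called per sample with MACS and merged. Doublets had been removed by the authors in both assays with DoubletFinder. Counts of nuclei per cell type were deposited too. The tables hold no barcodes, so barcodes shared between libraries could not be counted. Their columns number the libraries 2 and 3 while the labels have replicates 1 and 2, which gives each column a strain and no sample. CPM were computed on the total of each column or sum.

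Strains were compared in Inh-CGE alone, and Inh-Lamp5 was not added as planned, since the columns of other cell types entered only as sums. The test was edgeR 4.0.16 in R 4.3.3 (TMM, quasi-likelihood F test of DBA minus B6, Benjamini-Hochberg over all features tested, called at an adjusted p under 0.05). Peaks needed at least 10 counts over the 4 libraries, and transcripts passed filterByExpr. DESeq2 1.42.0 was an alternative. The biological coefficient of variation was 0.0643 for peaks and 0.0869 for transcripts. The smallest p of an exact permutation test of 2 against 2 libraries is 0.33, and the p-values given are those of the fitted models, over replicates that are pools of tissue. Standard errors are the log2 fold change divided by the root of F. Floors (3 counts) reflect counting error alone. The code was tested on simulated data.

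Genes came from GENCODE vM21 (basic), and sequence from the RefSeq copy of GRCm38. Tables were made with pandas 2.3.3, numpy 2.4.6 and scipy 1.17.1 under Python 3.11.15 and figures with matplotlib 3.10.9. Members and lists were chosen with earlier results of these data known. Named were the 20 genes with the most members, list genes with a member, the 10 members with the highest CPM and the 10 with the highest ratio at 10 CPM or more, called members, and the 5 peaks on each side of the 3-fold limit. Items withheld for evaluation are not reported here. Alternatives were other thresholds, strains alone, other cell types, DESeq2, RLE, other filters, a replicate block, libraries left out, a window of 500 bp, a promoter distance of 1 kb, peaks over 2 kb from start sites and all annotated genes.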

Additional observations from a re-analysis of the deposited data

How the results depend on the processing

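The number of CGE/Lamp5 peaks, 562, followed the thresholds. It was 978 at a minimum of 3 CPM, 142 at 10 CPM, 1362 at 2 times and 175 at 5 times each other group. It lay between 379 (every other cell type on its own) and 623 (DBA only) with other cell types or strains as the base, and 321 passed in both strains. Of the 562, 348 were among the 589 peaks chosen with Inh-CGE alone. Leaving out whole libraries, and equal weights per library, were not run, because columns of other cell types were read only as sums. In their place, chosen after seeing the data, the Inh-CGE column of each library was left out (580 to 617 peaks) and the strains were weighted equally (547). Assigned to the nearest start site of any annotated gene, the peaks fell to 531 genes, of which 137 were among the 484 protein-coding ones.

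TAATTA stood in 39.7% of the CGE/Lamp5 peaks, 18.1% of the MGE peaks and 14.7% of all peaks in windows of 500 bp. The comparison at like GC content was chosen after seeing the data.

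Of the 3 members called between strains, DESeq2 called 0 (142 of all peaks, and 22 members at an unadjusted p under 0.05) and edgeR with a minimum of 1 count called 0 (72 of all peaks, 88 members unadjusted), where the main fit had 74 members unadjusted. Leaving out a library gave 0 to 2 members and 286 to 338 of all peaks, and the cause was not tested. With 1 library left in a strain, that library is assumed to vary like the others. RLE normalization gave 3 members, and filterByExpr also 3. For transcripts, DESeq2 called 27 of the nearest genes and 1278 of all transcripts. Leaving out a library gave 0 to 51 of the nearest genes and 0 to 2014 transcripts. The 0 came without DBA library 2 (edgeR, 2375 at an unadjusted p under 0.05) and without DBA library 3 (2049), and the cause was not tested.

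With the library number as a replicate block, 3 members and 515 of all peaks were called, and 59 nearest genes and 2094 transcripts. Libraries of the same number were not shown to share animals.

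Depth set a limit in non-neuronal cells, where 5 CPM stood for 33.7 counts, and in single libraries. Each strain had 2 libraries, and strain cannot be told apart from effects of mapping to different references. The nearest gene is a label, and motif matches are not binding sites.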
